A study of Homo sapiens with 4 samples.

Results

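The genes described here are 41 genes of the endoplasmic reticulum (ER), the compartment in which secreted and membrane proteins are folded. They were chosen by symbol, with earlier results of these data known. All 41 were found among the 19192 genes of each count table. By role they comprise 4 sensors and transcription factors of the unfolded protein response, 10 chaperones and co-chaperones, 5 protein disulfide isomerases, 8 factors of ER-associated degradation, 5 components of the Sec61 translocon, 4 subunits of the translocon-associated protein (TRAP) complex, 3 signal peptidase subunits and 2 components of the COPII coat, which buds vesicles from the ER.

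SW480 is an established line of human colorectal adenocarcinoma cells, and the libraries came from 2 lines derived from it. Both were labelled as overexpressing LIN28B, an RNA-binding protein that blocks let-7 microRNA maturation, and 1 of them also as homozygously lacking IMP1 (gene IGF2BP1), a protein that binds mRNAs. Each line gave 1 library of ribosome footprints (fragments protected by ribosomes, 18 to 34 nt) and 1 of randomly fragmented RNA (18 to 50 nt), each from 3 pooled culture plates. No agent or treatment was named, and the labels do not say whether a line was 1 clone.

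Total counts were 5429224 to 6813372 in the RNA libraries and 2732760 to 3260262 in the footprint libraries. The libraries labelled as the knockout had more IGF2BP1, not less (840 OE-labelled against 1974 knockout-labelled RNA counts, log2 ratio 0.79, and 332 against 821 footprint counts, log2 ratio 1.03), and LIN28B was lower there (1205 against 303 RNA counts, log2 ratio -2.43). The lines are therefore called OE-labelled and knockout-labelled, and all ratios are knockout-labelled over OE-labelled. Of 10 markers of colorectal epithelium, 3 (CDX1, GPA33 and LGALS4) had 0 counts in all 4 libraries, and their summed level was 4955 to 10441 normalised CPM in RNA and 14957 to 29751 in footprints, lower in the knockout-labelled library of each assay. KRT8 and KRT18 held most of that sum (log2 ratios of -1.22 and -1.10 in mRNA), while CDH1 was higher there (0.89 in mRNA and 1.11 in footprints). Over 6 blood cell markers the sum was 13.0 normalised CPM in OE-labelled and 23.7 in knockout-labelled RNA, with PTPRC at 0 in each library. Most of it was CD68 (58 of 68 and 163 of 168 RNA counts). Over 5 markers of plasma cells, a cell type with an expanded ER, the sum was 99.4 and 76.4. Of these, JCHAIN and TNFRSF17 were at 0 in each library, and SDC1 held most of the sum (513 of 518 and 524 of 542 RNA counts). The sum over 6 fibroblast, endothelial and muscle markers was 24.7 in OE-labelled and 37.3 in knockout-labelled RNA, with DCN at 0 in each library. DES held most of it (101 of 129 and 156 of 265 RNA counts). COL1A1 had 2 and 55 RNA counts and 0 and 57 footprint counts, and PECAM1 had 8 and 27 RNA counts. Over 5 goblet and endocrine markers the sum was 2.11 and 1.55, with TFF3 and AGR2 at 0 in each library. The part of any of these levels in the results below was not tested.

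Proteins enter the ER through the Sec61 channel, where signal peptidase removes their signal sequence and chaperones and disulfide isomerases fold them. When unfolded proteins accumulate, the sensors ERN1 (IRE1), EIF2AK3 (PERK) and ATF6 start the unfolded protein response, which raises chaperones and degradation factors and slows protein synthesis. Proteins that fail to fold are drawn back to the cytosol and degraded by the proteasome, a route called ER-associated degradation.

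Most of the 41 genes stood higher in the knockout-labelled RNA library. A gene counted as measured in an assay where its libraries averaged 50 counts or more, and as called at a scaled difference of 1.5-fold or more. All 41 were measured in mRNA, where 9 were called higher and 0 lower, against 10.5% of 9855 measured genes called higher and 10.5% called lower. The 9 are 22.0% of the 41, and 32 of the 41 (78.0%) had a log2 ratio above 0, against 51.1% of all measured genes. The median log2 ratio was 0.28, and 0.01 over all measured genes.

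Footprints were measured for 39 of the 41, with CRELD2 and EDEM1 below the minimum. Of the 39, 9 (23.1%) were called higher and 1 lower, against 15% of 7323 measured genes higher and 14.1% lower, and 28 were above 0, against 51.5% of all measured genes. The median was 0.21, and 0.02 over all measured genes. Both assays called 6 of the 39 higher, XBP1, HSPA5, PDIA5, DERL2, SEC61A1 and SEC24D, against 3.77% of 7260 genes, and 0 were lower in both, against 4.09%. At 2-fold, 3 members were higher and 0 lower in mRNA (2.99% and 3.49% of all genes), 2 higher and 0 lower in footprints (4.66% and 4.44%), and SEC24D alone was higher in both (0.854%). Members had more counts than the typical gene (median mean count 580 against 254 in mRNA). Among genes with a mean count of at least 200, where counting error is smaller, 9 of 38 members (23.7%) and 6.95% of 5815 genes were called higher in mRNA, and 6 of 28 members (21.4%) and 9.94% of 2977 genes in footprints. In these, 0 members were called lower in either assay, against 6.67% of genes in mRNA and 9.17% in footprints.

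With 1 library per line and assay, none of these differences has a replicate check and no test was possible. Because the genes were chosen with earlier results known, their shares beside those of all genes are a description. The 95% intervals beside each ratio cover counting error only. Being bulk libraries, they cannot tell apart more expressing cells and more RNA per cell.

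**Figure D1:**
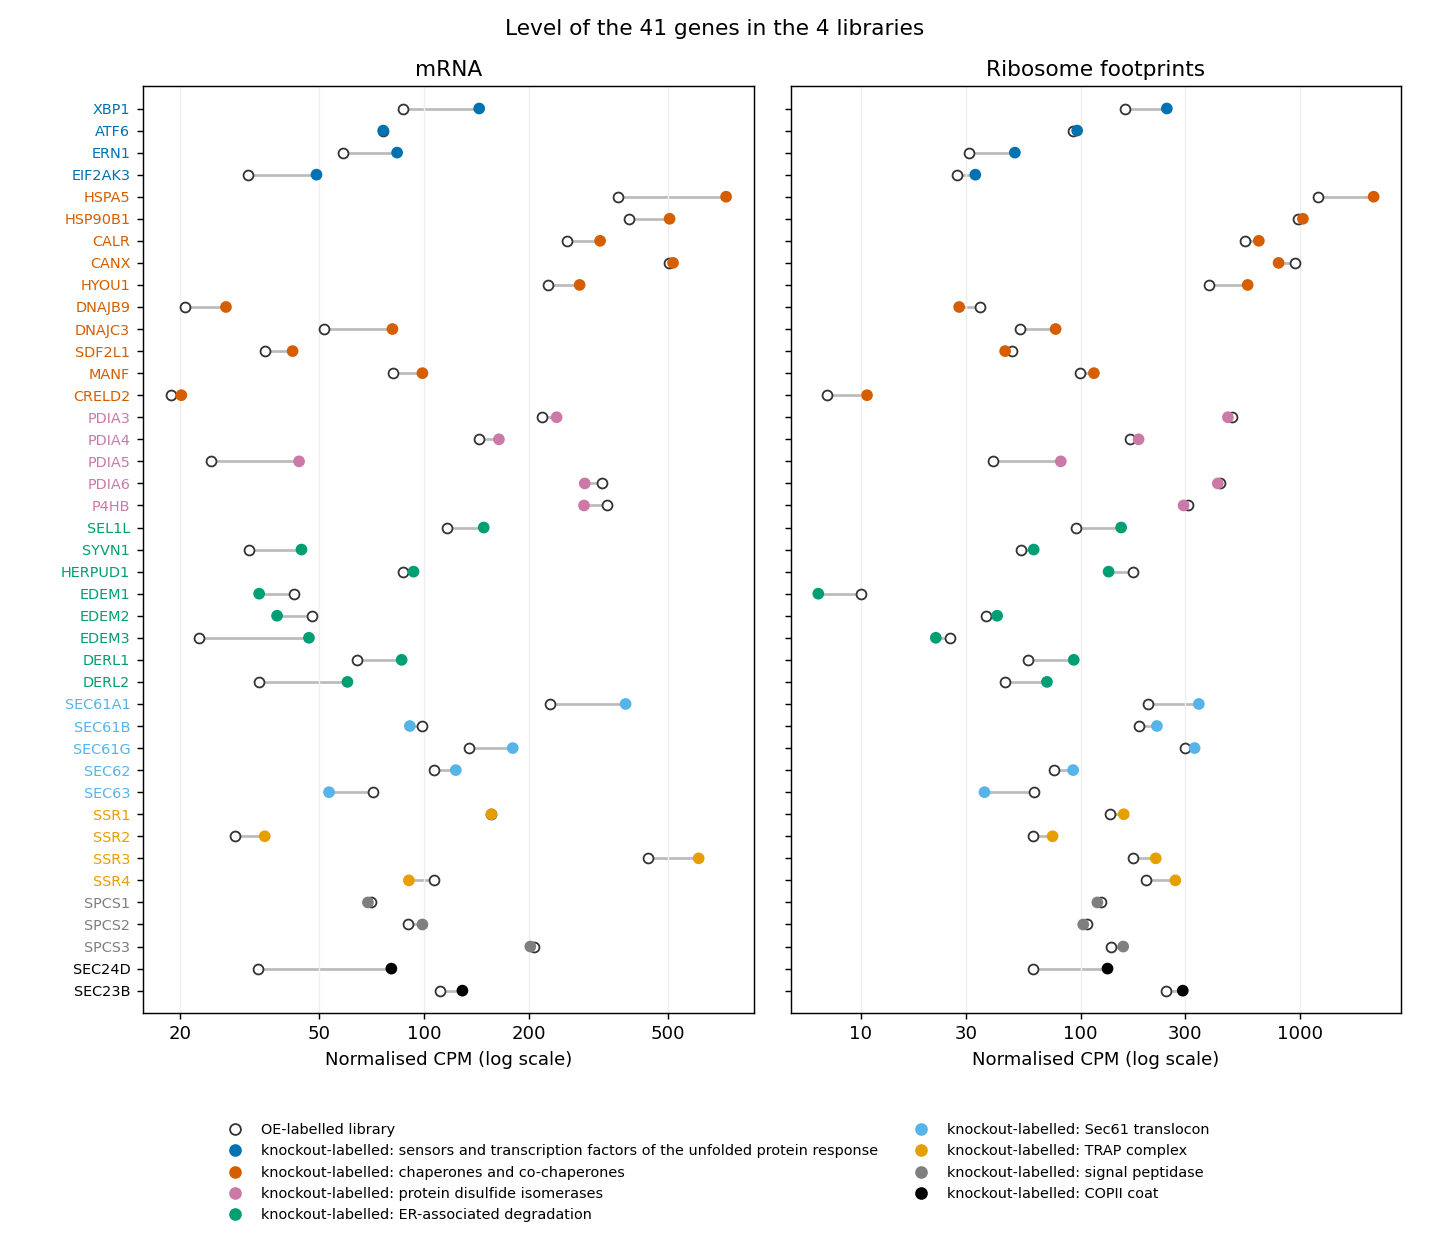
Normalised CPM (counts scaled to a common library total, log axis) of each gene in mRNA (left) and ribosome footprints (right), with open circles for the OE-labelled library, filled circles for the knockout-labelled library and colour for role. Levels are not divided by gene length, so only the circles of 1 gene compare. The filled circle lies to the right of the open one for 32 of 41 genes in mRNA, widest for SEC24D (33.4 and 80.6 CPM).

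Of the sensors and transcription factors, 2 of 4 were called higher in mRNA and 2 of 4 in footprints, with XBP1 in both. XBP1 encodes a transcription factor of chaperone and degradation genes that becomes fully active only after IRE1 cuts its mRNA. It had 454 RNA counts in the OE-labelled and 1021 in the knockout-labelled library (87.1 and 144 normalised CPM), a log2 ratio of 0.72 (95% interval 0.56 to 0.89). Its footprints went from 432 to 812 counts (159 and 247 CPM), a log2 ratio of 0.63 (0.46 to 0.81). Both assays thus placed XBP1 about equally higher, by 1.65-fold in mRNA and 1.55-fold in footprints.

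The piece that IRE1 removes from XBP1 mRNA is shown because it decides which protein is made. It is 26 nt long and lies in the coding sequence. Capitals mark the bases that the GENCODE release 29 transcript ENST00000611155 lacks (chr22:28796124-28796149, GRCh38, minus strand), with 20 bases on each side. Transcript ENST00000344347 instead lacks chr22:28796122-28796147. The same bases recur at both ends, so the exact cut sites of IRE1 cannot be read from these placements.
XBP1 intron: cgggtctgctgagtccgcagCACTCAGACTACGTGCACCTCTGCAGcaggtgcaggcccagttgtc
The transcript listed in the count tables, ENST00000216037, keeps these bases. The counts hold 1 value per gene, so the spliced and unspliced forms were not separated.

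EIF2AK3, the kinase that phosphorylates the initiation factor eIF2alpha, had 163 and 349 RNA counts (31.3 and 49.2 CPM; log2 ratio 0.65, 0.38 to 0.93). Its footprints, 74 and 109 counts, gave a log2 ratio of 0.28 with an interval across 0 (-0.16 to 0.73). ERN1, the IRE1 kinase and endonuclease, was under the threshold in mRNA (306 and 594 counts; log2 ratio 0.51, 0.31 to 0.72) and past it in footprints (84 and 165 counts; 0.69, 0.31 to 1.09). ATF6, a membrane-bound transcription factor freed by proteolysis, stood at 76.3 and 76.4 CPM in mRNA and 92.5 and 96.5 CPM in footprints (log2 ratio 0.06, -0.18 to 0.31). ATF6 was thus the 1 sensor that differed by less than its counting error in both assays.

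All 10 chaperones and co-chaperones had an mRNA log2 ratio above 0, from 0.04 for CANX to 1.02 for HSPA5, with a median of 0.31. Of these, 2 passed 1.5-fold. HSPA5 encodes BiP, the ER Hsp70 that binds unfolded chains and holds the sensors inactive. Its RNA counts were 1880 in the OE-labelled and 5208 in the knockout-labelled library (361 and 734 CPM; 2.03-fold; log2 ratio 1.02, 0.95 to 1.10). Its footprint counts were 3278 and 7104 (1209 and 2163 CPM; 1.79-fold; log2 ratio 0.84, 0.78 to 0.90). HSPA5 held 6.48% of all RNA counts of the 41 genes in the OE-labelled library and 10.7% in the knockout-labelled one, and 14.0% and 20.6% of their footprints. Summed over the 41 genes, normalised mRNA was 1.23-fold higher with HSPA5 and 1.18-fold higher without it, and footprints 1.22-fold and 1.12-fold.

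DNAJC3 (P58IPK), a BiP co-chaperone that also inhibits PERK, was the other one past the threshold in mRNA (269 and 576 counts, 51.6 and 81.2 CPM; log2 ratio 0.65, 0.44 to 0.87). Its footprints lay just under it (144 and 253 counts; 0.53, 0.24 to 0.84). HYOU1, a large Hsp70-like exchange factor of BiP, showed the reverse order, with 0.30 in mRNA (1181 and 1981 counts) and 0.58 in footprints (1045 and 1896 counts; 0.47 to 0.69). HSP90B1, the ER Hsp90, stood at 0.38 in mRNA (0.31 to 0.46) and 0.07 in footprints (0.00 to 0.15).

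The lectin chaperones, which hold glycoproteins during folding, differed from each other. The soluble one, CALR, stood at 0.32 in mRNA (256 and 319 CPM) and 0.21 in footprints (562 and 649 CPM). Its membrane-bound counterpart CANX stood at 0.04 in mRNA (504 and 517 CPM) and -0.25 in footprints (948 and 798 CPM; -0.33 to -0.17). DNAJB9 (ERdj4), a co-chaperone that keeps IRE1 inactive, went from 108 to 192 RNA counts (0.38, 0.04 to 0.74) and from 95 to 92 footprint counts (-0.32, -0.75 to 0.11). SDF2L1 had log2 ratios of 0.27 and -0.10, and MANF, a secreted ER stress protein, 0.28 and 0.21. CRELD2 stood at 0.10 in mRNA, and its 19 and 35 footprint counts were too few to be read.

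Several chaperone genes carry the ER stress response element (ERSE) or ERSE-II, the promoter elements through which ATF6 and XBP1 act. ERSE (CCAAT and CCACG with any 9 bases between them) and ERSE-II (ATTGG and CCACG with any 1 base between them) were searched on both strands from 250 bases before to 50 after each gene's start in RefSeq promoters of GRCh38.p14. Of the 41 genes, 37 had a promoter in that table and SEC24D, DERL1, SPCS1 and PDIA3 did not. ERSE was found in 7 of the 37 (XBP1, HSPA5, HSP90B1, CALR, CANX, CRELD2 and PDIA6), against 0.0916% of 27305 genes, and ERSE-II in 3 (HYOU1, SDF2L1 and HERPUD1), against 0.0696%. The genes were chosen as ER stress genes, for which the element is known, so its frequency among them is a description.

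Parts of these promoters are shown because they hold the element that groups the genes whatever their ratios. Only bases before the start are given, on the strand of the gene, with the elements in capitals. HSPA5 is shown over the 250 bases before its start (chr9:125241344-125241593, minus strand), XBP1 at chr22:28800588-28800636 (minus), CALR at chr19:12938369-12938417 (plus), PDIA6 at chr2:10812838-10812886 (minus), CRELD2 at chr22:49918539-49918587 (plus), SDF2L1 at chr22:21642099-21642139 (plus) and HERPUD1 at chr16:56932010-56932050 (plus).
HSPA5: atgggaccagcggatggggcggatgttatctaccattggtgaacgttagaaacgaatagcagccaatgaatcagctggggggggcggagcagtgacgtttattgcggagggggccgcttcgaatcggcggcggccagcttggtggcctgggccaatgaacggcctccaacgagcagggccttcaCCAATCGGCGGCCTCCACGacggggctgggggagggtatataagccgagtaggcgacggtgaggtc
XBP1: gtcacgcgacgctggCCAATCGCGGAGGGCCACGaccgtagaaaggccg
CALR: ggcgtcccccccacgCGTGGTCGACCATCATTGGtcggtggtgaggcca
PDIA6: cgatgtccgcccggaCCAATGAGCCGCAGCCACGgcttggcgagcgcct
CRELD2: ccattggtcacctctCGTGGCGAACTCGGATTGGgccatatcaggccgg
SDF2L1: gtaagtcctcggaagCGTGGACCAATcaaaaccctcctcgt
HERPUD1: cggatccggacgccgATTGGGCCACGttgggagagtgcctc
In CALR, CRELD2 and SDF2L1 the element lies on the other strand, so its capitals read as the reverse complement.

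The promoters of HSP90B1 and HYOU1 each hold a pair of elements, shown for their spacing.
HSP90B1: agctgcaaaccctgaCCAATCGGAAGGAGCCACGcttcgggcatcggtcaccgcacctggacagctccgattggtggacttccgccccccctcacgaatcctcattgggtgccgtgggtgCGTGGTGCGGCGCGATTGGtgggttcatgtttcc
HYOU1: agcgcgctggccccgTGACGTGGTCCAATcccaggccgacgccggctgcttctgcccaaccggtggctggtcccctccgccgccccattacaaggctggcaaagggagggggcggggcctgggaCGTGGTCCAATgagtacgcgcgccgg
HSP90B1 (chr12:103930201-103930354, plus strand) has its ERSE copies from 194 to 176 and from 89 to 71 bases before the start. HYOU1 (chr11:119057259-119057408, minus strand) has ERSE-II from 185 to 175 and from 79 to 69 bases before it, and its first copy overlaps TGACGTGG, the core of a further XBP1 element. That core was found in 4 members, HYOU1, SEC62, SSR3 and SSR4, and in 0.927% of all genes.

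Members with and without an exact match to these elements had like medians in mRNA. A member without a match may still hold a variant copy or one outside the bases searched. The comparison therefore cannot separate genes by a working element. Of the 10 members with ERSE or ERSE-II, 9 were above 0 and PDIA6 below, HSPA5 and XBP1 were called higher and 0 lower, and the median was 0.28. Of the 27 members with a promoter but no match, 20 were above 0, 6 were called higher and 0 lower, and the median was also 0.28. In footprints the medians were 0.07 over 9 measured genes with an element and 0.23 over 26 without.

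Only PDIA5 of the 5 protein disulfide isomerases, the enzymes that form and rearrange disulfide bonds, was called. It had 128 and 311 RNA counts (24.6 and 43.8 CPM; log2 ratio 0.83, 0.53 to 1.14) and 108 and 267 footprint counts (39.8 and 81.3 CPM; 1.03, 0.70 to 1.37). The more abundant isomerases had lower ratios than PDIA5, on both sides of 0. PDIA4 stood at 0.19 in mRNA and 0.14 in footprints, and PDIA3, which works with calnexin and calreticulin, 0.14 and -0.06. PDIA6 stood at -0.16 in mRNA (-0.26 to -0.07) and -0.04 in footprints. P4HB, the classical isomerase PDI, stood at -0.22 in mRNA (1740 and 2039 counts, 334 and 287 CPM; -0.31 to -0.12) and -0.07 in footprints. In mRNA, the intervals of PDIA6 and P4HB were thus wholly below 0. Those of PDIA5, PDIA4 (0.06 to 0.33) and PDIA3 (0.03 to 0.25) were wholly above it.

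ER-associated degradation had the widest range in mRNA, from -0.33 to 1.04, with a median of 0.39. In mRNA, 2 of 8 genes were called higher, EDEM3 and DERL2, and in footprints 3 of 7, DERL1, SEL1L and DERL2. DERL2, a membrane factor of the exit channel, had 176 and 428 RNA counts (33.8 and 60.3 CPM; log2 ratio 0.83, 0.58 to 1.10) and 123 and 231 footprint counts (0.63, 0.31 to 0.96). Its paralogue DERL1 was higher by less in mRNA (334 and 612 counts; 0.43, 0.23 to 0.63) and by 1.62-fold in footprints (156 and 306 counts; 0.69, 0.41 to 0.98).

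SYVN1 (HRD1), the ubiquitin ligase of the pathway, stood at 0.50 in mRNA (164 and 316 counts; 0.22 to 0.78) and 0.19 in footprints (145 and 201 counts; -0.12 to 0.51). Its partner SEL1L stood at 0.35 in mRNA (605 and 1052 counts; 0.21 to 0.50) and 0.67 in footprints (260 and 503 counts; 0.46 to 0.90). HERPUD1, an adaptor of the ligase with ERSE-II in its promoter, went from 454 to 662 RNA counts (0.10, -0.08 to 0.27) and from 470 to 441 footprint counts (-0.37, -0.56 to -0.18). The ligase, its partner and its adaptor were thus not ordered alike in the assays.

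The EDEM genes encode mannosidase-like proteins that mark misfolded glycoproteins. In mRNA, EDEM3 stood apart from EDEM1 and EDEM2. EDEM3 went from 118 to 332 RNA counts (22.6 and 46.8 CPM; 2.06-fold; log2 ratio 1.04, 0.74 to 1.36), but its footprints were 69 and 72 counts (25.4 and 21.9 CPM; -0.22, -0.71 to 0.28). EDEM1, at 221 and 239 RNA counts, had a log2 ratio of -0.33 (-0.60 to -0.06), and its 27 and 21 footprint counts were below the minimum. EDEM2 also stood at -0.33 in mRNA (249 and 269 counts; -0.59 to -0.08) and at 0.16 in footprints (101 and 137 counts; -0.22 to 0.55).

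**Figure D2:**
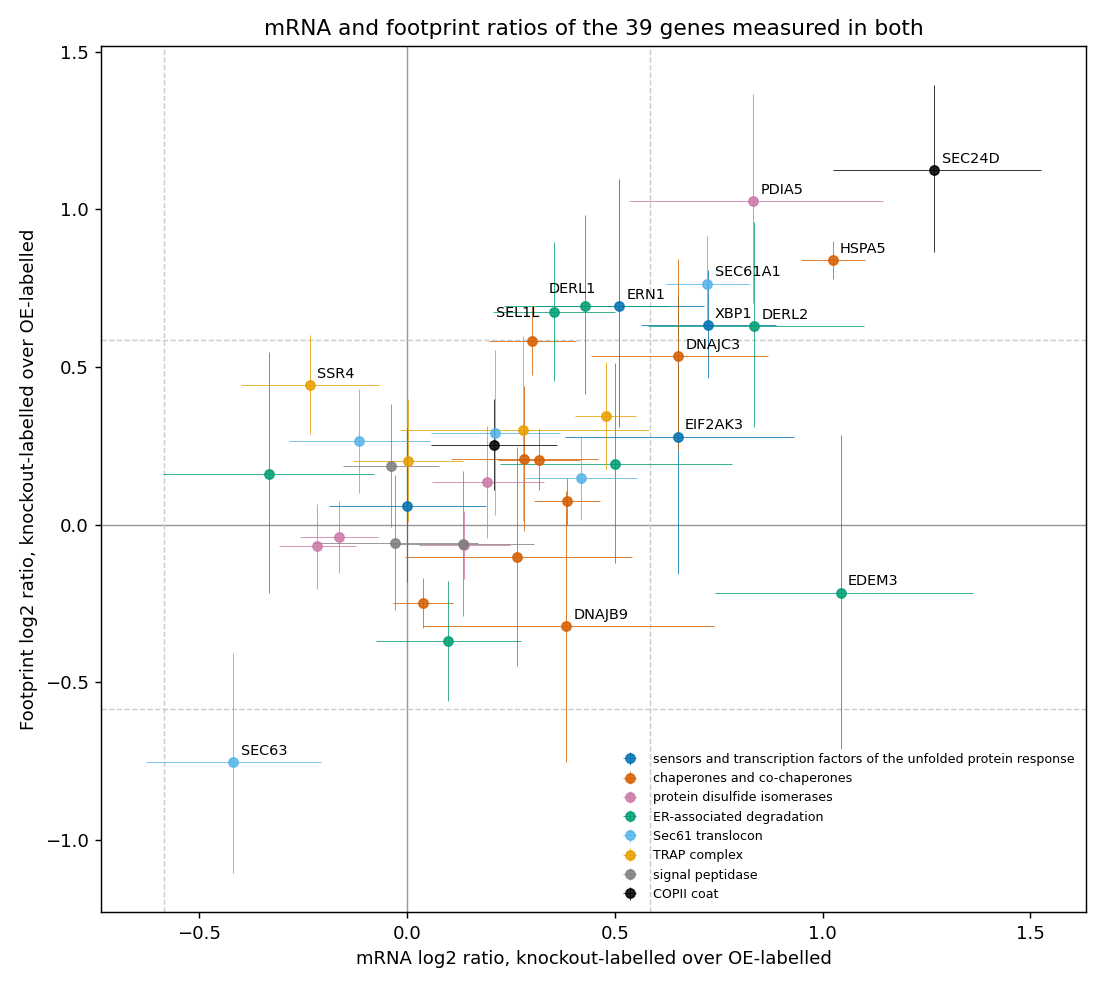
Log2 ratio of knockout-labelled over OE-labelled counts in mRNA (x axis) and ribosome footprints (y axis) for the 39 genes measured in both, coloured by role. Bars are 95% intervals of counting error and dashed lines mark 1.5-fold. The 6 genes in the upper right corner are XBP1, HSPA5, PDIA5, DERL2, SEC61A1 and SEC24D, and EDEM3 lies far to the right with a footprint ratio of -0.22.

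Among the 5 components of the translocon, SEC61A1 and SEC63 stood at opposite ends. SEC61A1, which encodes the channel itself, had 1194 and 2683 RNA counts (229 and 378 CPM; 1.65-fold; log2 ratio 0.72, 0.62 to 0.82) and 552 and 1136 footprint counts (204 and 346 CPM; 1.70-fold; 0.76, 0.62 to 0.91). SEC63, a J-domain protein that recruits BiP to the channel for post-translational import, was the 1 member called lower in footprints (167 and 120 counts, 61.6 and 36.5 CPM; -0.75, -1.10 to -0.41). Its mRNA stood at -0.42 (372 and 379 counts; -0.63 to -0.21). SEC62, its partner in post-translational import, stood at 0.21 in mRNA (0.06 to 0.37) and 0.29 in footprints (0.03 to 0.55). The intervals of the partners did not overlap in either assay.

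The small subunits of the channel differed less. SEC61B stood at -0.12 in mRNA (514 and 646 counts; -0.28 to 0.05) and 0.26 in footprints (503 and 732 counts; 0.10 to 0.43). SEC61G stood at 0.42 in mRNA (700 and 1274 counts; 0.28 to 0.55) and 0.15 in footprints (810 and 1087 counts; 0.02 to 0.28). The TRAP complex, which assists insertion of some signal sequences, had 0 of 4 genes called in either assay, with footprint log2 ratios of 0.20 to 0.44. SSR3 was highest in mRNA (2292 and 4346 counts; 0.48, 0.40 to 0.55), while SSR4 stood at -0.23 in mRNA (555 and 642 counts; -0.40 to -0.07) and 0.44 in footprints (539 and 888 counts; 0.29 to 0.60). The signal peptidase subunits SPCS1, SPCS2 and SPCS3 ranged from -0.04 to 0.13 in mRNA and from -0.06 to 0.19 in footprints, and 0 of 3 were called.

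Sec61 holds 1 copy of each of its 3 subunits, so their footprint densities were set side by side as normalised footprint CPM per kb of coding length. SEC61A1 stood at 143 in the OE-labelled and 242 in the knockout-labelled library, SEC61B at 644 and 774, and SEC61G at 1464 and 1622. The ratio of the highest to the lowest subunit was 10.3 in the OE-labelled and 6.70 in the knockout-labelled library. The coding lengths are 1428, 288 and 204 nt, and the part of footprints at the ends of short reading frames in these densities was not tested. Across the TRAP genes the density ran from 110 for SSR2 to 383 for SSR4 in the OE-labelled library and from 136 to 521 in the knockout-labelled one. Of the catalytic subunits of signal peptidase, SEC11A stood at 312 and 261 and SEC11C at 31.4 and 22.2, against 152 to 406 for the 3 SPCS genes. The SEC11C values rest on 49 and 42 footprint counts, below the minimum.

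**Figure D3:**
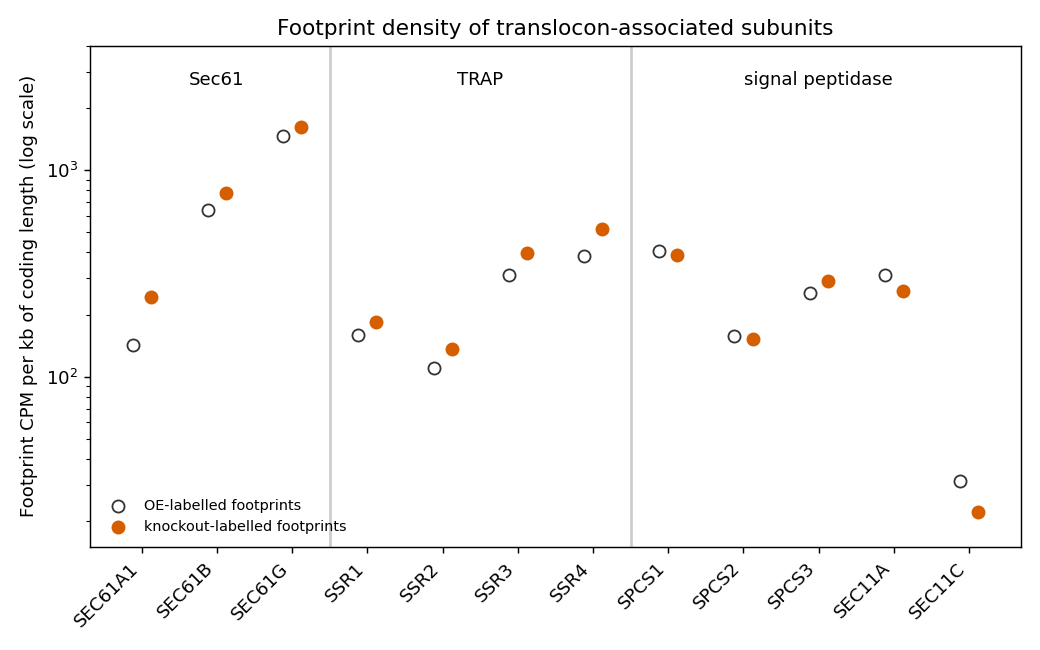
Footprint density in normalised CPM per kb of coding length (log axis) for subunits of Sec61, TRAP and signal peptidase, with open circles for the OE-labelled and filled circles for the knockout-labelled library. Within Sec61 the channel subunit SEC61A1 is lowest (143 and 242) and SEC61G highest (1464 and 1622). Footprint counts of SEC11C were below the minimum.

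The COPII gene SEC24D, which encodes a cargo-binding coat subunit, had the highest ratio of the 41 genes in each assay. It had 174 and 572 RNA counts (33.4 and 80.6 CPM; 2.41-fold; log2 ratio 1.27, 1.02 to 1.53) and 165 and 436 footprint counts (60.8 and 133 CPM; 2.18-fold; 1.12, 0.86 to 1.39). SEC23B, an inner coat subunit, stood at 0.21 in mRNA (581 and 914 counts) and 0.25 in footprints (665 and 960 counts).

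Few members were called in translational efficiency, which divides a gene's footprint ratio by its mRNA ratio. Of 39 genes, 1 was called higher and 2 lower, against 13.4% and 12.9% of 7260 genes, and the median was -0.07. At 2-fold, 0 were higher and 1, EDEM3, lower, against 3.65% and 3.6%. SSR4 was the higher one (log2 ratio 0.68, 0.45 to 0.90), and EDEM3 (-1.26, -1.82 to -0.70) and DNAJB9 (-0.70, -1.24 to -0.17) were the lower ones. Of the 9 measured chaperones and co-chaperones, 8 were below 0, against 3657 of 7260 genes, and HYOU1 (0.28, 0.13 to 0.43) was above. Among the 8, the intervals of CALR, DNAJC3, SDF2L1 and MANF lay across 0. Intervals were wholly below 0 for HSPA5 (-0.19), HSP90B1 (-0.31), CANX (-0.29), PDIA3 (-0.20), HERPUD1 (-0.47) and SEC61G (-0.27), besides EDEM3 and DNAJB9. They were wholly above 0 for SEL1L (0.32), EDEM2 (0.50), SEC61B (0.38) and SPCS3 (0.22), besides SSR4 and HYOU1. These 8 and 6 of 39 compare with 22.9% and 22.8% of all genes. An error in the mRNA ratio moves efficiency the opposite way. Members had more counts than the typical gene, and the part of this in the small number called was not tested. With a mean count of at least 200 in both assays, 1 of 27 members was called higher and 0 lower. The share of all genes at that minimum was not computed for efficiency.

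**Figure D4:**
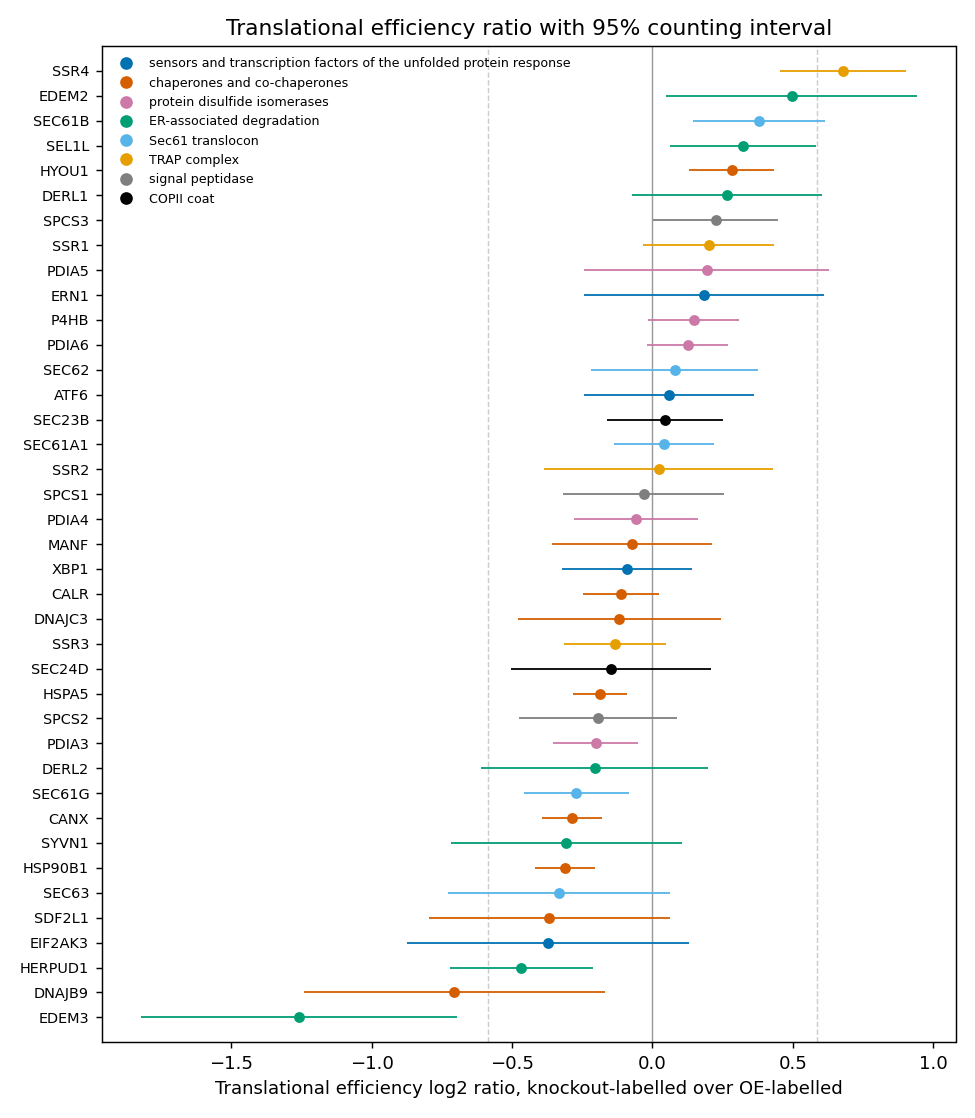
Translational efficiency log2 ratio, knockout-labelled over OE-labelled, of the 39 genes measured in both assays, ordered by value and coloured by role, with 95% intervals of counting error and dashed lines at 1.5-fold. SSR4 (0.68) lies past the right line, and DNAJB9 (-0.70) and EDEM3 (-1.26) past the left one.

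Within each line, the level of footprints over mRNA was taken relative to the median gene. Gene length divides out only where both assays were counted over the same part of a transcript, which is not known here. HSPA5 stood at a log2 value of 1.53 in the OE-labelled and 1.32 in the knockout-labelled line, at percentiles 97.9 and 95.7 of 7260 genes. HSP90B1 (1.12 and 0.79), CALR (0.92 and 0.79), PDIA3 (0.95 and 0.73) and SEC23B (0.92 and 0.95) were also well above the median gene in both lines. At the other end were SSR3 (-1.56 and -1.71) and ERN1 (-1.13 and -0.97). EDEM3 went from -0.04 to -1.32, and SSR4 from 0.69 to 1.34. Over the 39 genes the median was 0.21 and -0.01, and 19 were above the median gene in both lines.

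Some of the higher members lie where neighbouring genes were higher as well. For each gene the median log2 ratio of the 40 nearest measured genes on its chromosome was computed in the same assay. SEC61A1 (chromosome 3, 128052369 to 128071682, GRCh38) had neighbours at 0.34 in mRNA, and 0.38 remained after subtraction. For PDIA5, on the same chromosome, the neighbours stood at 0.28 and 0.55 remained, and for SEL1L on chromosome 14 these were 0.32 and 0.03. The neighbours of HSPA5 on chromosome 9 (0.04), SEC24D on chromosome 4 (-0.08), EDEM3 on chromosome 1 (0.08) and EIF2AK3 on chromosome 2 (0.01) were near 0. After subtraction, 6 of 41 genes were at least 1.5-fold higher in mRNA (SEC24D, HSPA5, EDEM3, DERL2, EIF2AK3 and XBP1) and 0 lower, against 9.91% and 10.7% of 9835 genes. In footprints 5 of 39 were higher (SEC24D, DERL1, ERN1, HSPA5 and DNAJC3), against 13.6% of 7311 genes, a share near that of all genes, and SEC63 was lower (-0.93), against 14.2%. Of the 6 genes called higher in both assays, only HSPA5 and SEC24D stayed past 1.5-fold in both after subtraction. The footprint neighbours of these genes stood at 0.44 for PDIA5, 0.36 for SEC61A1 and 0.33 for DERL2. They stood at 0.18 for XBP1, 0.14 for HSPA5 and 0.01 for SEC24D. The part of gene copy number in these values was not tested.

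**Figure D5:**
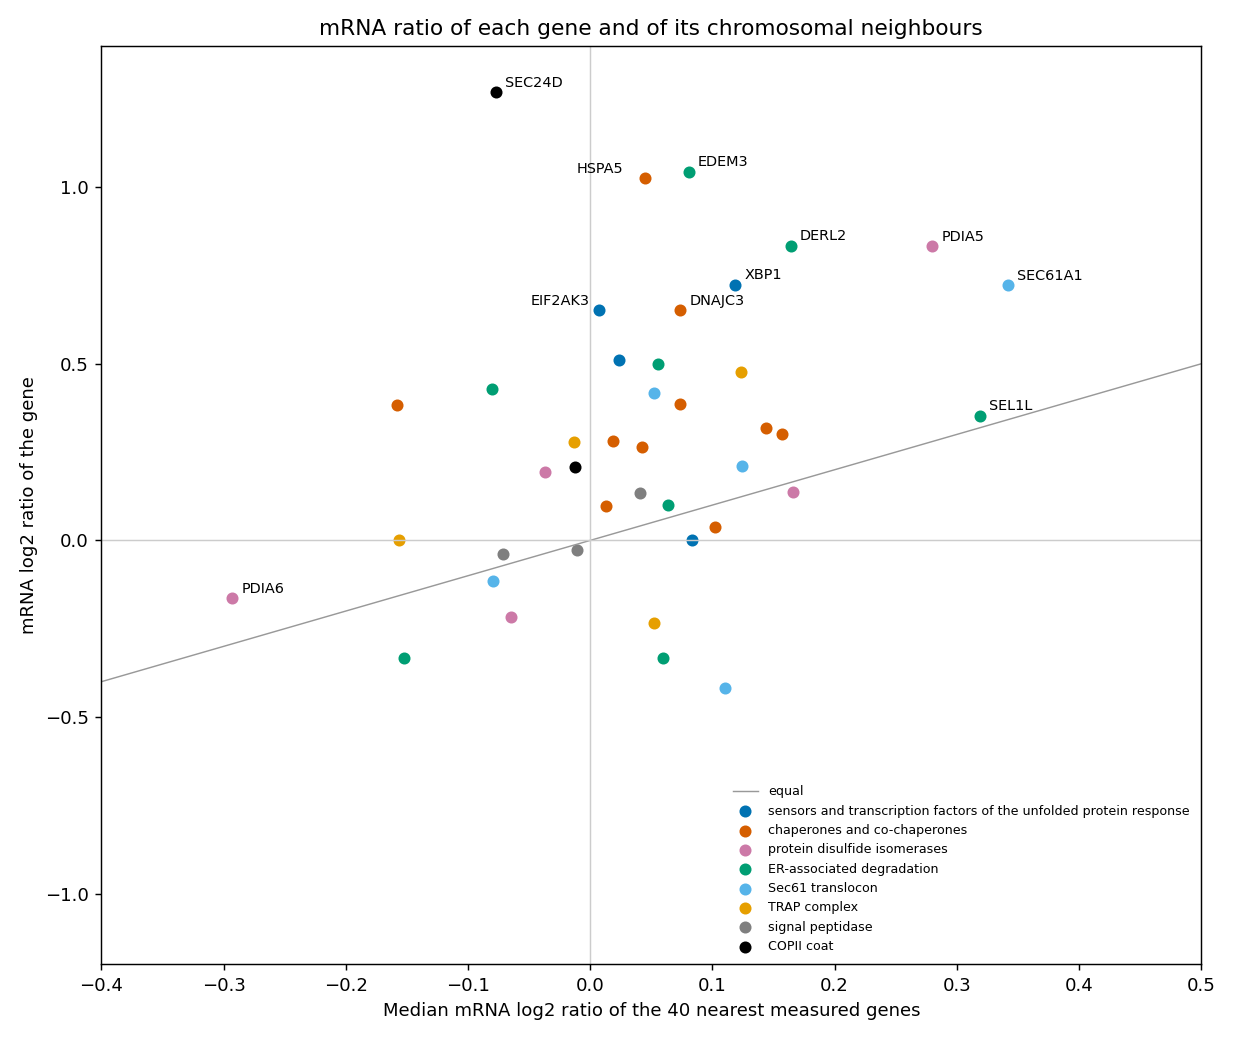
The mRNA log2 ratio of each of the 41 genes (y axis) against the median mRNA log2 ratio of its 40 nearest measured genes (x axis), coloured by role, with a line where both are equal. SEC24D, EDEM3 and HSPA5 lie above 1 with neighbours between -0.08 and 0.08, whereas SEL1L (0.35) lies near the line.

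Other genes of these pathways were called in mRNA at shares near those of all genes. In footprints the share called higher was also near that of all genes, while the share called lower was smaller. Single lists departed further from the shares of all genes. Of 124 measured in mRNA, 12 were called higher and 10 lower, against 10.5% and 10.5% of all measured genes, with a median of 0.05. Of 112 measured in footprints, 19 were higher and 8 lower, against 15% and 14.1%, also with a median of 0.05. Further ER folding factors had 0 of 34 called higher and 2 lower in mRNA, and 5 of 31 higher and 2 lower in footprints. The collagen chaperone SERPINH1 stood at 0.51 in mRNA and 0.63 in footprints, the BiP co-chaperone DNAJB11 at 0.22 and 0.61, the prolyl isomerase FKBP14 at 0.53 and 1.02 and the thioredoxin-like TMX4 at -0.07 and -1.14.

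Regulators of the response and the PERK to ATF4 arm had 3 of 19 genes called higher and 2 lower in mRNA, and 5 of 18 higher and 1 lower in footprints. ATF4 encodes a transcription factor that is translated more when eIF2alpha is phosphorylated. Neither this phosphorylation nor the activity of PERK was measured. ATF4 had 2568 and 3020 RNA counts (-0.21) and 1458 and 2739 footprint counts (0.63), an efficiency log2 ratio of 0.84 (0.72 to 0.96). Its target DDIT3 (CHOP) stood at 0.94 in mRNA and 1.55 in footprints, PPP1R15A (GADD34), which reverses eIF2alpha phosphorylation, at 0.52 and 1.05, and the site-1 protease gene MBTPS1, whose product cleaves ATF6, at 0.33 and 0.72. ATF6B, the paralogue of ATF6, stood at 0.15 and -0.41. WFS1, which encodes an ER membrane protein and is named after its values were seen, was lower in both assays, at -1.54 and -1.45. Its nearest measured genes had a median mRNA log2 ratio of -0.56, and -0.98 remained after subtraction.

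Further degradation factors had 2 of 24 genes called higher and 3 lower in mRNA, and 1 of 19 higher and 3 lower in footprints, with the ubiquitin-conjugating enzymes UBE2J1 at -1.05 and -0.67 and UBE2G2 at -0.09 and -0.67, and ERLIN2 at 0.96 and 0.62. In translocation, signal recognition and glycosylation 4 of 35 were higher and 3 lower in mRNA, and 7 of 32 higher and 2 lower in footprints. The oligosaccharyltransferase subunit STT3B stood at -0.62 and -1.10, the signal recognition particle receptor subunit SRPRB at 0.64 and 1.13, GET4, which handles tail-anchored proteins, at 0.00 and 0.65, and TRAM1 at 0.35 and -0.91. Further COPII genes had 3 of 12 higher and 0 lower in mRNA, SEC24A (0.97), SEC13 (0.92) and SEC23A (0.66). In footprints only SEC13 (0.81) of the 12 was higher, with SEC24A at -0.14 and SEC23A at -0.01. Ratios of these other genes are given before subtraction of neighbours. The mRNA neighbours stood at 0.42 for SRPRB (0.22 remained), 0.40 for DNAJB11 (-0.18 remained) and -0.54 for UBE2G2 (0.45 remained). They were near 0 for ERLIN2 (0.07), STT3B (0.07) and SEC24A (-0.08).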

How the data were processed

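Footprint and RNA libraries were deposited as whole-number counts, and each of the 19192 genes has 1 transcript beside its count, per the file headers. Per the labels' protocols, linkers carried random identifiers of 4 and 5 nt and cDNA was amplified over 15 cycles. The submitters' processing notes name cutadapt 1.10, Bowtie 1.1.2, HISAT2 2.1.0 and GRCh38. Not given in the sources used here are the counter, its strand setting, which part of a transcript was counted and whether duplicates were collapsed, so intervals may be too narrow. One RNA library's cell line field reads SW840 and its source field SW480; it was taken as SW480.

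Counts were scaled within each assay by TMM factors (edgeR 4.0.16, R 4.3.3), and normalised CPM put the libraries of an assay on a common total. Log2 ratios had 0.5 added to each count. Intervals at 95% are exact conditional binomial (Clopper-Pearson) for ratios and Wald for efficiency. The ratio steps were tested on simulated counts that held counting error only and were scaled by a median ratio. That run checked neither the TMM scaling nor the effect of duplicates. Overlaps between genes were counted in GENCODE release 29, in which 19176 transcripts were found: 16 of the 41 genes share exon bases with a gene on the opposite strand, among them SEC61A1, EIF2AK3, DNAJB9 and DERL1, and 6 have a pseudogene of their name, among them XBP1, SEC63 and SSR4, so reads of these may not be their own alone.

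The genes and the pathway lists were chosen with earlier results of these data known. Named outside the 41 are IGF2BP1, LIN28B, ATF4, DDIT3, PPP1R15A, ATF6B and, per pathway list, the 3 or 4 genes with the highest RNA counts among those past 1.5-fold in either assay, of which 1 is not reported here. Outside this rule, SEC11A and SEC11C are given as subunits of signal peptidase, KRT8, KRT18 and CDH1 as epithelial markers, and WFS1, SERP1, FICD, ALG12 and ERO1B were chosen after their values were seen. As alternatives, libraries were scaled by upper quartiles, by total counts or by size factors of DESeq2 1.42.0, the count minimum was 10, 200 or none, the fold was 2, 5 was added to each count, or the median of the 40 nearest genes was subtracted. Scripts ran in Python 3.11.15 with matplotlib 3.10.9, pandas 2.3.3, scipy 1.17.1 and numpy 2.4.6.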

Additional observations from a re-analysis of the deposited data

How the results depend on the processing

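No paired analysis was possible because each line has 1 library per assay, and for the same reason no library could be left out. With libraries scaled by total counts, the mRNA median over all genes went from 0.01 to 0.13, and all genes called from 1036 higher and 1038 lower to 1493 and 746. Members called higher in mRNA then went from 9 to 12, with ERN1, SYVN1 and SSR3 added, against 0 lower, and their median was 0.40. Under the same scaling SSR4 fell just under the threshold in efficiency, leaving 0 called higher, and 10 members were called higher in footprints, with HYOU1 added. Under another scaling or with 5 added, the sign turned for ATF6, SEC61B, SSR1, SPCS1 and SPCS3 in mRNA and for ATF6, SEC61A1, SEC62, SSR2, SEC23B and SPCS1 in efficiency, none of them past the threshold. The medians over members were 0.22 to 0.40 in mRNA, 0.13 to 0.23 in footprints and -0.17 to -0.03 in efficiency over all settings. At a fold of 2, members called were 3 higher in mRNA (SEC24D, EDEM3 and HSPA5), 2 higher and 0 lower in footprints, and 0 higher and 1 lower (EDEM3) in efficiency. A count minimum of 10, or none, called 2 lower in footprints, SEC63 and EDEM1, and a minimum of 200 called 0 lower in footprints and 0 lower in efficiency, as SEC63, EDEM3 and DNAJB9 were no longer measured. The shares of all genes at a minimum of 10 or none were not computed. Subtracting the 40 nearest genes, a setting added for footprints after the data were seen, gave 5 called higher there in place of 9. Of these 5, SEC24D, DERL1, ERN1 and HSPA5 were among the 9 and DNAJC3 was not. Total counts without mitochondrially encoded genes were also added after the data were seen. The median half-width of the members' intervals was 0.17 in mRNA, 0.21 in footprints and 0.26 in efficiency and was wider for genes with fewer counts, so that at this depth the resolvable difference varied by gene.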

Other observations

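ERSE or ERSE-II was also present in the promoters of 25 further genes of the count tables, of which 18 were measured in mRNA. Of these, 3 were called higher and 3 lower, against 10.5% of all measured genes each way, with a median log2 ratio of -0.12. In footprints 2 of 12 were called higher and 4 lower, against 15% and 14.1%. Some of the 25 encode ER proteins and were chosen after their values were seen. SERP1, whose product binds the Sec61 channel, had 1430 and 2592 RNA counts (0.41, knockout-labelled over OE-labelled) and 578 and 1350 footprint counts (0.95). FICD, which encodes an enzyme that modifies BiP, had 41 and 77 RNA counts (0.46), and its 15 and 53 footprint counts were below the minimum. ALG12, a mannosyltransferase of the ER, stood at -0.21 in mRNA (94 and 111 counts), and ERO1B, an oxidase that serves the disulfide isomerases, at -0.02 (129 and 173 counts), both with footprints below the minimum.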
